A study of Mus musculus with 6 samples.

Results

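The genes described are 38 collagens and other genes of the fibroblast matrix, measured by RNA-seq in mouse spermatogonial stem cell cultures. They were taken by name, as a reading of non-germ cells in the cultures, by a rule that uses no measured value, although earlier results of these data were known when the names were chosen. All 38 symbols were among the 24495 rows of the deposited gene count file, and all 38 were among the 14855 genes with enough counts to be tested. The smallest count of any of them in any library was 48 reads, for Loxl1. By role they were 5 fibrillar collagen chains, 3 chains of basement membrane collagen, 5 chains of other collagens, 8 glycoproteins and matricellular proteins, 3 small proteoglycans, 3 crosslinking enzymes, 2 elastic fibre proteins, 5 metalloproteinases and inhibitors, and 4 receptors and markers of mesenchymal cells.

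Fibroblasts and related mesenchymal cells secrete collagen as triple-helical procollagen, which is trimmed outside the cell, assembled into fibrils and crosslinked by lysyl oxidases. Fibronectin, tenascin, thrombospondins and small proteoglycans attach to these fibrils, and metalloproteinases and their inhibitors set how fast the matrix turns over. In the testis the matrix genes are expressed mostly by peritubular, interstitial and Sertoli cells, and germ cells sit on the basement membrane these cells make. Cultured spermatogonial stem cells are often grown on fibroblasts, but the labels name neither a feeder layer nor a sort.

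Both groups were spermatogonial stem cells of the DBA2 mouse strain, isolated from testes of animals 5 to 8 days old and grown in culture. In 3 libraries the cells had been kept for 2 weeks with 2 uM EPZ5676 (pinometostat, an inhibitor of the histone H3 lysine 79 methyltransferase DOT1L). In the other 3 they had been kept for the same time with 0.2% ethanol, the control. The series describes the libraries as biological triplicates and does not say whether they came from separate animals or cultures, so p-values measure the spread between these libraries. RNA was measured over many cells at once, and the labels do not say whether cells were separated before extraction. Fewer cells of a type and less RNA per cell therefore cannot be told apart.

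The libraries held 17784332 to 54645903 counts over genes, the largest being EPZ5676 replicate 2 and the smallest ethanol replicate 2. These same libraries stood apart from the rest on the first principal component of all tested genes (48.7% of the variance), at 25.1 and 39.6 against -18.0 to -13.5 for the other 4. As a check of the labelled cell type, the summed level of 27 spermatogonial genes was 7562 to 7731 CPM with EPZ5676 and 7429 to 7888 CPM with ethanol (CPM are counts scaled by library size and TMM factors), and Dazl, a germ cell RNA-binding protein, was at 1769 ± 84.6 and 1695 ± 27.5 CPM (mean ± SD, n = 3 per group). The 38 matrix genes together took 0.216%, 0.297% and 0.251% of the counts in EPZ5676 replicates 1, 2 and 3 and 0.213%, 0.421% and 0.243% in the ethanol replicates. The exact binomial 95% interval was 0.418% to 0.424% in ethanol replicate 2 and 0.295% to 0.298% in EPZ5676 replicate 2. These intervals cover counting error only.

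No member passed edgeR's quasi-likelihood test of EPZ5676 against ethanol at a Benjamini-Hochberg adjusted p under 0.05, and the levels of the 2 groups overlapped for all 38. The test called 0 of 38 members, against 0% of all tested genes, and the smallest adjusted p of a member was 0.705 (Dcn). At an unadjusted p under 0.05 it still called 0 members, against 3.57% of all genes lower and 3.84% higher with EPZ5676. Groups that did not overlap were found for 0 of 38 members, against 7.64% of all genes with EPZ5676 lower and 7.22% with EPZ5676 higher. DESeq2 called 0 members as well, against 0.155% of all genes higher and 0.195% lower with EPZ5676. With limma-voom 0 members and 0 genes of all tested were called. The log2 fold change of EPZ5676 against ethanol was below 0 for 36 of 38 members, against 51.7% of all genes, with a median of -0.22 against -0.01 for all genes and a range from -0.51 (Col8a1) to 0.33 (Fbn1). The median rested on ethanol replicate 2: it was 0.12 without that library, and 0.0021 without replicate 2 of both groups.

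Same-numbered libraries deviated together from their group means, most clearly replicate 2, so the comparison was also fitted with the replicate number as a block. This fit called 97 genes (0.653%) and again 0 members, against 0.323% of all genes higher and 0.33% lower. The member nearest the threshold was Col1a2, where the blocked edgeR test gave an adjusted p of 0.0504. Before adjustment, 11 members had a blocked p under 0.05 with a lower level in EPZ5676, against 9.51% of all genes, and 1 with a higher level, against 9.01%. The 11 were the 5 fibrillar chains Col1a1, Col1a2, Col3a1, Col5a1 and Col5a2, with Col4a1, Col6a1, Sparc, Ctgf, Dcn and Loxl2, and the 1 was Fbn1. DESeq2 with the same block called 4 members lower, Col1a2, Col3a1, Col5a1 and Sparc, against 1.06% of all genes, and no member higher, against 0.909%, and it gave no adjusted p to 2 members. With library totals in place of TMM the blocked edgeR fit called Col1a2 alone among the members (adjusted p = 0.0421), lower with EPZ5676, against 0.788% of all genes lower and 0.512% higher.

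For Col1a2, Col3a1, Col5a1 and Sparc the 250 bases before the annotated transcription start are shown, since DESeq2 with the block called them. The sequences come from the RefSeq promoter table for GRCm38.p6, which held an entry for 25 of the 38 members. They run 5′ to 3′ on the strand of the gene and end at the base before the start. Capitals mark CCAAT (bound by NF-Y), TATAAA (the letters of the TATA box) or GGAATG (the TEAD element), searched on both strands and at any position. None of these motifs contains another.
Col1a2, chr6:4505368-4505617, plus strand: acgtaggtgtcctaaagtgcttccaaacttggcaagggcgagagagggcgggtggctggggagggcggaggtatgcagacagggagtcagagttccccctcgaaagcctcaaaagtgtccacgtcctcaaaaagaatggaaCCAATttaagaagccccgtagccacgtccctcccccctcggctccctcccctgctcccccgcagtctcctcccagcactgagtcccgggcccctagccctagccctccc
Col3a1, chr1:45311288-45311537, plus strand: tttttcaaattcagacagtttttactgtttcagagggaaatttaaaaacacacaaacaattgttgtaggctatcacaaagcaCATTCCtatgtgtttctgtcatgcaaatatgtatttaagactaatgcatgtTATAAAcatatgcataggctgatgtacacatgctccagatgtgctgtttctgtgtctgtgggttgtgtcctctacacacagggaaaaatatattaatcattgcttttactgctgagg
Col5a1, chr2:27886175-27886424, plus strand: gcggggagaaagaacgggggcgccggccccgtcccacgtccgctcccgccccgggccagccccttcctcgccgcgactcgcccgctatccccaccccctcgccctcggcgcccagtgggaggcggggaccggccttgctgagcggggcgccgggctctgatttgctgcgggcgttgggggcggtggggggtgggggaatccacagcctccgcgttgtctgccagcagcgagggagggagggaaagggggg
Sparc, chr11:55420081-55420330, minus strand: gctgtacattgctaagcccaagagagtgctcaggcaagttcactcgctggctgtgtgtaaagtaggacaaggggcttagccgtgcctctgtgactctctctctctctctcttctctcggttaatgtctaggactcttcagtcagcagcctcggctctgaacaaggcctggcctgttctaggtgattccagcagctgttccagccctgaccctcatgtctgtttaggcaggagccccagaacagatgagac
The Col1a2 window held CCAAT at position -109. The Col3a1 window held TATAAA at -117 and GGAATG on the other strand, read here as CATTCC, at -168. No match to these letters was in the windows of Col5a1, at 76.4% G and C, and Sparc. The 25 matched members had 28 windows, since some have more than 1 start. CCAAT was found in 9 of these windows (32.1%), against 33.8% of all 32851 promoter windows, TATAAA in 8 (28.6%), against 12.4%, and GGAATG in 4 (14.3%), against 12.6%. The windows of the Tnc entries overlap and hold the same TATAAA, at -126 and -205 from their starts. The matches were counted at any position and are a description of the sequence.

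The fibrillar collagens form the banded fibrils of connective tissue, and all 5 chains were lower with EPZ5676 in each of the 3 same-numbered pairs. Across all members 10 of 38 were lower in every pair, against 22.3% of all genes, and 0 were higher in every pair, against 19.5%. Col1a1 and Col1a2 encode the chains of type I collagen, the main fibril protein of skin and bone. Col1a1 was at 207, 329.8 and 152 CPM in EPZ5676 replicates 1, 2 and 3 and at 216, 365 and 219.8 CPM in the ethanol replicates. Col1a2 was at 88.7, 191 and 102 CPM in the EPZ5676 libraries and 116, 252 and 119 CPM in the ethanol libraries, in the same order of replicates. For both chains replicate 2 was the highest library of its group, and the groups overlapped. The log2 fold change was -0.21 ± 0.29 (SE) for Col1a1 and -0.34 ± 0.36 for Col1a2, with edgeR adjusted p of 0.901 and 0.866. Within pairs 1, 2 and 3 the log2 differences of Col1a2 were -0.39, -0.40 and -0.22, so that its blocked estimate of -0.34 ± 0.06 had a smaller error.

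Col3a1, the type III chain of elastic tissues and early granulation matrix, was at 96.2, 130.4 and 103 CPM in the EPZ5676 libraries and 104, 187 and 139 CPM in the ethanol libraries. The unblocked log2 fold change was -0.38 ± 0.20 (edgeR adjusted p = 0.713) and the blocked one -0.36 ± 0.08 (adjusted p = 0.0826). Ethanol replicate 2 was the highest library, and EPZ5676 replicate 2 lay between ethanol replicates 1 and 3. Col5a1 encodes a chain of type V collagen, which regulates the thickness of type I fibrils, and stood at 79.6, 117 and 74.2 CPM in the EPZ5676 libraries and 94.3, 137 and 96.9 CPM in the ethanol libraries. Its pairs differed by -0.24, -0.23 and -0.39 on the log2 scale, and the blocked edgeR adjusted p was 0.0740. Its partner chain Col5a2 was at 31.4, 49.9 and 40.8 CPM in the EPZ5676 libraries and 32.7, 81.99 and 42.8 CPM in the ethanol libraries. In Col5a2 the low value of pair 2 (-0.06, -0.72 and -0.07 for pairs 1, 2 and 3) made most of the difference, and the other pairs differed little.

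**Figure D1:**
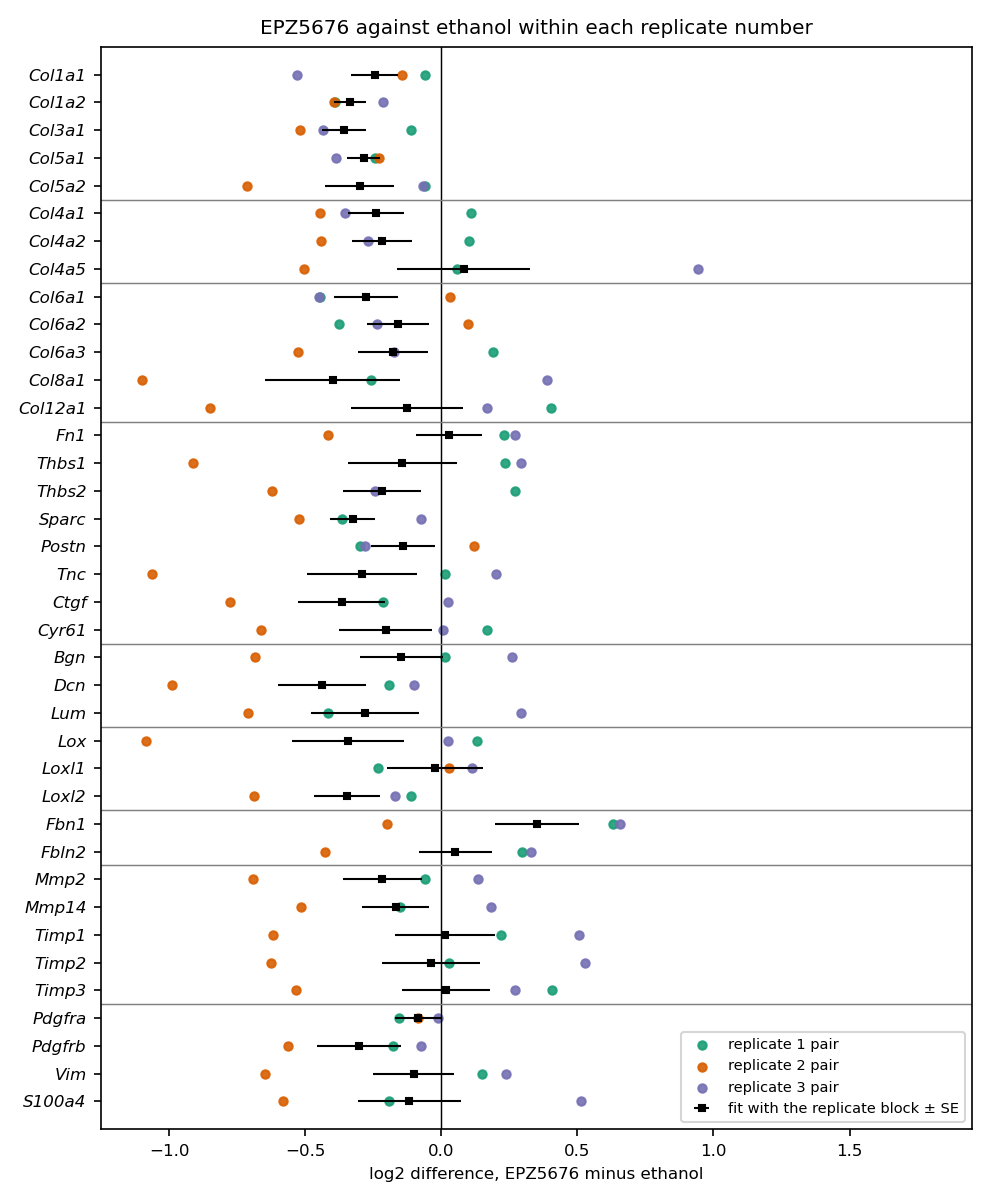
Log2 difference of EPZ5676 minus ethanol for each of the 38 genes (rows, by role) within the same-numbered pairs of libraries (coloured points, horizontal axis in log2 units), with the estimate of the blocked fit ± SE as black squares. The 5 fibrillar collagens lie left of 0 in every pair, whereas most other genes lie left of 0 mainly in pair 2, where 34 of 38 do.

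The pairs were unlike for the members as a whole. The level was lower with EPZ5676 for 34 of 38 members in pair 2, for 20 in pair 1 and for 17 in pair 3. The median log2 difference of the members was -0.55 in pair 2, -0.06 in pair 1 and 0.02 in pair 3. For the 5 fibrillar chains the medians of pairs 1, 2 and 3 were -0.11, -0.40 and -0.39.

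Leaving out a pair changed which members the blocked edgeR fit called, at 1 residual degree of freedom. Without pair 2, 10 of 38 members passed an adjusted p of 0.05. The fibrillar chains Col1a1, Col1a2, Col3a1 and Col5a1 and the microfilament chain Col6a1 were lower with EPZ5676, 5 members against 2.91% of all genes, and Fn1, Thbs1, Fbn1, Fbln2 and Timp1 were higher, 5 members against 2.45%. Without pair 3, 10 members were called, all lower with EPZ5676, against 1.84% of all genes lower and 3.26% higher. They were Col1a2, Col3a1, Col5a2, Col8a1, Sparc, Tnc, Ctgf, Dcn, Lox and Loxl2. Without pair 1 no member was called and no gene of all tested. Col1a2 and Col3a1 were called lower both without pair 2 and without pair 3. Fn1, Thbs1, Fbn1, Fbln2 and Timp1, called higher without pair 2, all lay below 0 in pair 2 itself. Without replicate 2 of both groups and with no block, 0 members were called, against 0.0405% of all genes higher and 0.027% lower.

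Type IV collagen forms the network of basement membranes, and its chains were also highest in replicate 2. Col4a1 was at 43.9, 70.5 and 40.7 CPM in the EPZ5676 libraries and 40.7, 95.9 and 52.03 CPM in the ethanol libraries, and Col4a2 at 22.2, 33.7 and 21.5 CPM with EPZ5676 and at 20.7, 45.8 and 25.9 CPM with ethanol. Replicate 2 was the highest library of either group for both genes, and the groups overlapped. The ratio of Col4a1 to Col4a2 counts stayed between 1.89 and 2.10 over the 6 libraries, a span of 1.11-fold, while each gene alone spanned more than 2-fold. These genes lie head to head: in the RefSeq table their first transcribed bases are 21 bases apart on opposite strands, and the transcripts overlap only at these starts. Whether strand was used in counting is not given in the sources used here. Col4a5, a type IV chain encoded on the X chromosome, varied more, at 4.65, 9.82 and 7.02 CPM in the EPZ5676 libraries and 4.47, 13.9 and 3.61 CPM in the ethanol libraries. Its log2 fold change of -0.0073 ± 0.49 turned to 0.08 with the block, and to 0.85 without ethanol replicate 2.

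Among the other collagens, the type VI chains make beaded microfilaments around cells. Col6a1 was at 15.3, 26.8 and 15.98 CPM in the EPZ5676 libraries and 20.9, 26.3 and 21.9 CPM in the ethanol libraries, and Col6a2 at 13.7, 23.1 and 13.2 CPM with EPZ5676 and at 17.8, 21.6 and 15.5 CPM with ethanol. Col6a3, the third chain of the same trimer, was at 28.7, 18.7 and 28.4 CPM in the EPZ5676 libraries and 25.2, 27.1 and 31.99 CPM in the ethanol libraries. The 3 chains did not share an order of libraries: EPZ5676 replicate 2 was the highest for Col6a1 and Col6a2 and the lowest for Col6a3. The ratio of Col6a3 to Col6a1 counts was 0.698 and 1.03 in replicate 2 of EPZ5676 and ethanol and 1.20 to 1.87 in the other 4 libraries, a span of 2.68-fold, against 1.26-fold for Col6a1 to Col6a2. Col8a1, a short-chain collagen of vessel walls, was at 5.42, 12.1 and 10.3 CPM in the EPZ5676 libraries and 6.51, 25.99 and 7.88 CPM in the ethanol libraries. It had the lowest fold change of the members (-0.51 ± 0.52 on the log2 scale, edgeR adjusted p = 0.855), and its highest library was ethanol replicate 2. Col12a1, a collagen that decorates fibrils, was at 28.2, 31.6 and 29.97 CPM in the EPZ5676 libraries and 21.3, 56.9 and 26.7 CPM in the ethanol libraries, and ethanol replicate 2 lay apart from the other 5 libraries.

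Fn1, fibronectin, the member with the highest level per kilobase of exon, was at 655, 666 and 729.6 CPM in the EPZ5676 libraries and 558, 888 and 604 CPM in the ethanol libraries. It took 21.2% to 29.8% of the summed CPM of the 38 genes, and its log2 fold change was 0.00044 ± 0.16. Ethanol replicate 2 was its highest library, whereas EPZ5676 replicate 2 lay between the other EPZ5676 libraries. Sparc, a collagen-binding protein of the matrix, was at 93.6, 193 and 122 CPM in the EPZ5676 libraries and 121, 278 and 128 CPM in the ethanol libraries, with replicate 2 highest in both. The unblocked log2 fold change was -0.36 ± 0.35 and the blocked one -0.32 ± 0.08, and the blocked edgeR adjusted p was 0.110. Thbs1, a thrombospondin that can activate latent TGF-beta, was at 114, 179 and 158 CPM in the EPZ5676 libraries and 97.02, 337 and 129 CPM in the ethanol libraries. Ethanol replicate 2 lay well above the other 5 libraries for Thbs1, and ethanol replicate 1 was the lowest. Tnc, tenascin C, was at 90.2, 99.3 and 146 CPM in the EPZ5676 libraries and 89.4, 207 and 127 CPM in the ethanol libraries. Ctgf and Cyr61 are matricellular proteins and targets of the YAP coactivator. Ctgf was at 6.96, 15.4 and 10.2 CPM in the EPZ5676 libraries and 8.08, 26.4 and 10.1 CPM in the ethanol libraries, and Cyr61 at 6.80, 8.85 and 9.06 CPM with EPZ5676 and at 6.05, 14.1 and 9.02 CPM with ethanol. Ethanol replicate 2 was the highest library for Tnc, Ctgf and Cyr61. Thbs2 (32.5 ± 7.84 CPM with EPZ5676 and 38.5 ± 13.7 with ethanol) and Postn, periostin (13.99 ± 3.40 and 15.3 ± 1.02 CPM), had log2 fold changes of -0.25 and -0.12.

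Small proteoglycans bind collagen fibrils through a protein core of leucine-rich repeats. Dcn, decorin, was at 19.4, 16.4 and 27.9 CPM in the EPZ5676 libraries and 22.2, 32.7 and 29.95 CPM in the ethanol libraries. It was lower with EPZ5676 in every pair, with log2 differences of -0.19, -0.99 and -0.10, and the edgeR adjusted p was 0.705 without the block and 0.212 with it. Dcn was lowest of all 6 libraries in EPZ5676 replicate 2 and highest in ethanol replicate 2. Lum, lumican, was at 4.40, 4.63 and 8.38 CPM with EPZ5676 and at 5.90, 7.62 and 6.84 CPM with ethanol, and Bgn, biglycan, at 59.4, 63.7 and 78.1 CPM with EPZ5676 and at 58.9, 102 and 65.2 CPM with ethanol. Neither had replicate 2 as the highest library of both groups.

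Lysyl oxidases crosslink collagen and elastin. Lox was at 38.6, 55.6 and 41.9 CPM in the EPZ5676 libraries and 35.2, 118 and 41.1 CPM in the ethanol libraries, and Loxl2 at 20.4, 35.2 and 18.6 CPM with EPZ5676 and at 22.1, 56.7 and 20.9 CPM with ethanol. Ethanol replicate 2 was 3.10-fold above the geometric mean of ethanol replicates 1 and 3 for Lox and 2.64-fold for Loxl2, and the corresponding values with EPZ5676 were 1.38 and 1.80. The remaining 4 libraries were close to each other for both genes. Loxl1, with the lowest level per kilobase of exon, was at 2.45, 3.43 and 2.83 CPM with EPZ5676 and at 2.90, 3.36 and 2.61 CPM with ethanol. Of the elastic fibre proteins, Fbn1 encodes fibrillin, the core of microfibrils, and Fbln2 a fibulin bound to it. Fbn1 was at 53.6, 54.2 and 68.2 CPM in the EPZ5676 libraries and 34.6, 62.4 and 43.3 CPM in the ethanol libraries, and its log2 fold change of 0.33 ± 0.20 was the highest of the members (edgeR adjusted p = 0.752, and 0.269 with the block). It was higher with EPZ5676 in pairs 1 and 3 and lower in pair 2. Fbln2 was at 73.8, 132 and 84.6 CPM in the EPZ5676 libraries and 60.1, 178 and 67.4 CPM in the ethanol libraries, with replicate 2 highest in both groups.

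The metalloproteinases Mmp2 and Mmp14 cleave collagens, and Mmp14 at the cell surface activates Mmp2. Mmp2 was at 22.9, 24.1 and 34.1 CPM in the EPZ5676 libraries and 23.9, 38.9 and 31.00 CPM in the ethanol libraries, and Mmp14 at 29.4, 35.6 and 41.95 CPM with EPZ5676 and at 32.6, 50.9 and 36.98 CPM with ethanol. Of their inhibitors, Timp1 was at 28.3, 34.5 and 39.4 CPM with EPZ5676 and at 24.3, 53.04 and 27.8 CPM with ethanol, Timp2 at 32.8, 36.99 and 47.1 CPM with EPZ5676 and at 32.2, 57.1 and 32.6 CPM with ethanol, and Timp3 at 28.6, 47.1 and 36.3 CPM with EPZ5676 and at 21.6, 68.2 and 30.1 CPM with ethanol. In all 5 genes ethanol replicate 2 was the highest of the 6 libraries and the level in pair 2 was lower with EPZ5676, while in pair 3 it was higher with EPZ5676. Among the receptors and markers, Pdgfra, a PDGF receptor that marks many fibroblasts, was at 21.1, 21.03 and 25.2 CPM in the EPZ5676 libraries and 23.5, 22.3 and 25.5 CPM in the ethanol libraries. It was the most even member, and the 1 member whose lowest library was replicate 2 in both groups. Pdgfrb, the receptor of mural and peritubular cells, was at 3.99, 6.08 and 4.82 CPM in the EPZ5676 libraries and 4.53, 9.02 and 5.08 CPM in the ethanol libraries. The ratio of Pdgfra to Pdgfrb counts was 3.46 and 2.48 in replicate 2 of EPZ5676 and ethanol and 5.02 to 5.29 in the other 4 libraries. Vim, the intermediate filament vimentin, was at 76.6, 107 and 88.7 CPM with EPZ5676 and at 69.2, 168 and 75.2 CPM with ethanol, and S100a4, a calcium-binding protein also called fibroblast-specific protein, at 8.44, 11.96 and 11.9 CPM with EPZ5676 and at 9.66, 17.9 and 8.31 CPM with ethanol.

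**Figure D2:**
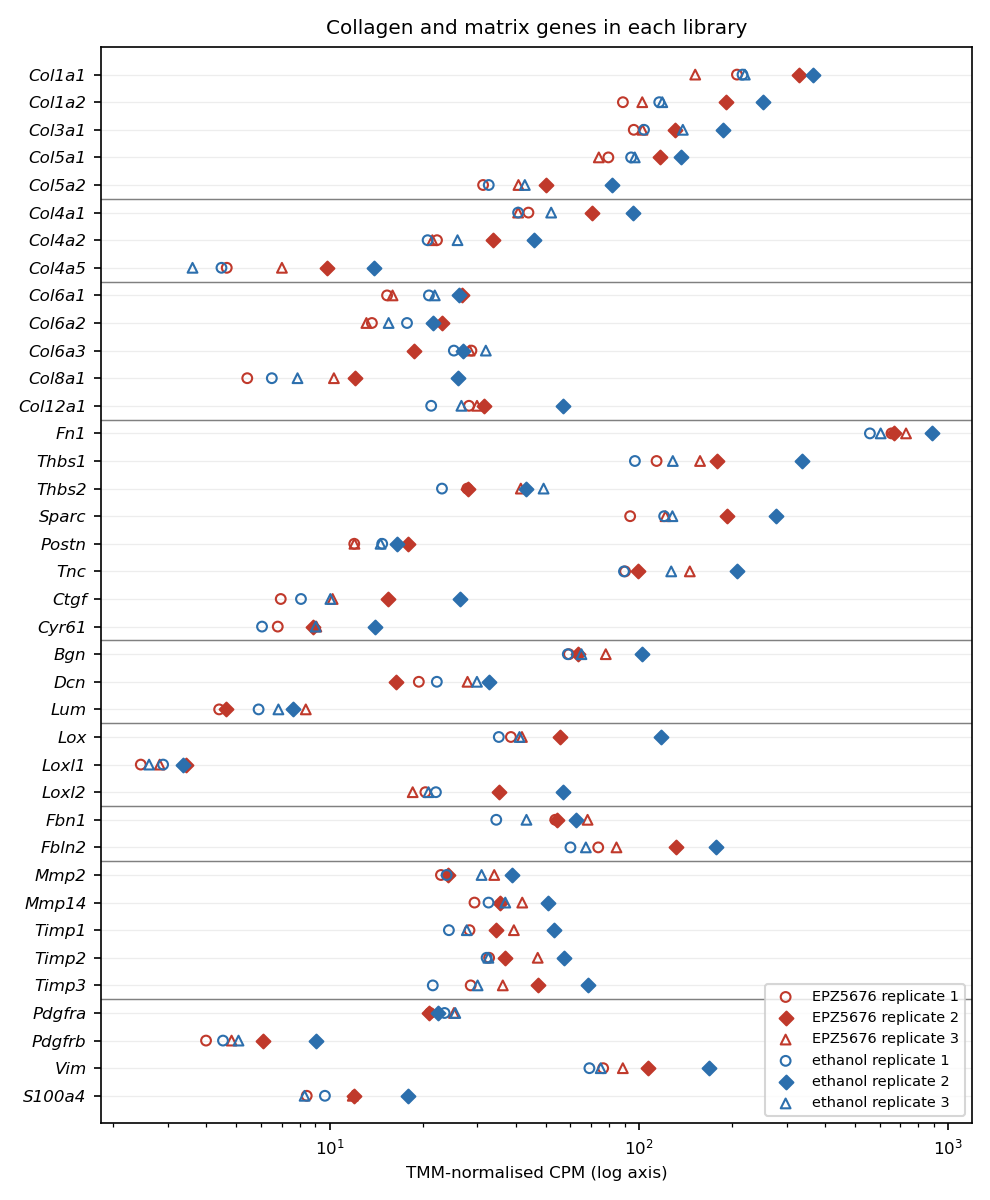
TMM-normalised CPM (log axis) of the 38 genes in the 6 libraries, with genes in rows by role and replicate 2 of each group as filled diamonds. Ethanol replicate 2 is the highest of the 6 libraries for 29 of 38 genes.

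The spread among libraries of the same group was wider for these genes than for most. The SD of log2 CPM within groups was above the median of all tested genes for 37 of 38 members, and its median over the members was 0.459 against 0.177. Col8a1 (0.873), Col4a5 (0.824) and Ctgf (0.756) had the highest values and Pdgfra (0.126) the lowest. The range over the 6 libraries was at least 2-fold for 22 of 38 members, against 16.9% of all genes. The SD over the ethanol libraries exceeded that over the EPZ5676 libraries for 28 members, against 54.5% of all genes.

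For most members the highest level was in replicate 2. Replicate 2 was the highest library in both groups for 24 of 38 members, against 26.1% of all genes, and at least 1.5-fold above replicates 1 and 3 (geometric mean) in both groups for 10, against 3.81%. It was at least 2-fold above them in both groups for 1 member, Col1a2 (2.01-fold with EPZ5676 and 2.14-fold with ethanol), against 0.687%. In the blocked edgeR fit the replicate number term was called for 21 of 38 members at an adjusted p under 0.05, against 11.9% of all genes. These were 11 of the 13 collagens, all but Col6a3 and Col12a1, with Thbs1, Thbs2, Sparc, Ctgf, Lox, Loxl2, Fbln2, Timp3, Pdgfrb and Vim. The smallest adjusted p values of this term were 0.000923 for Col1a2, 0.00185 for Sparc, 0.00476 for Col1a1 and 0.00482 for Loxl2. In 20 of the 21 replicate 2 was the highest library of both groups, and the exception was Thbs2.

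**Figure D3:**
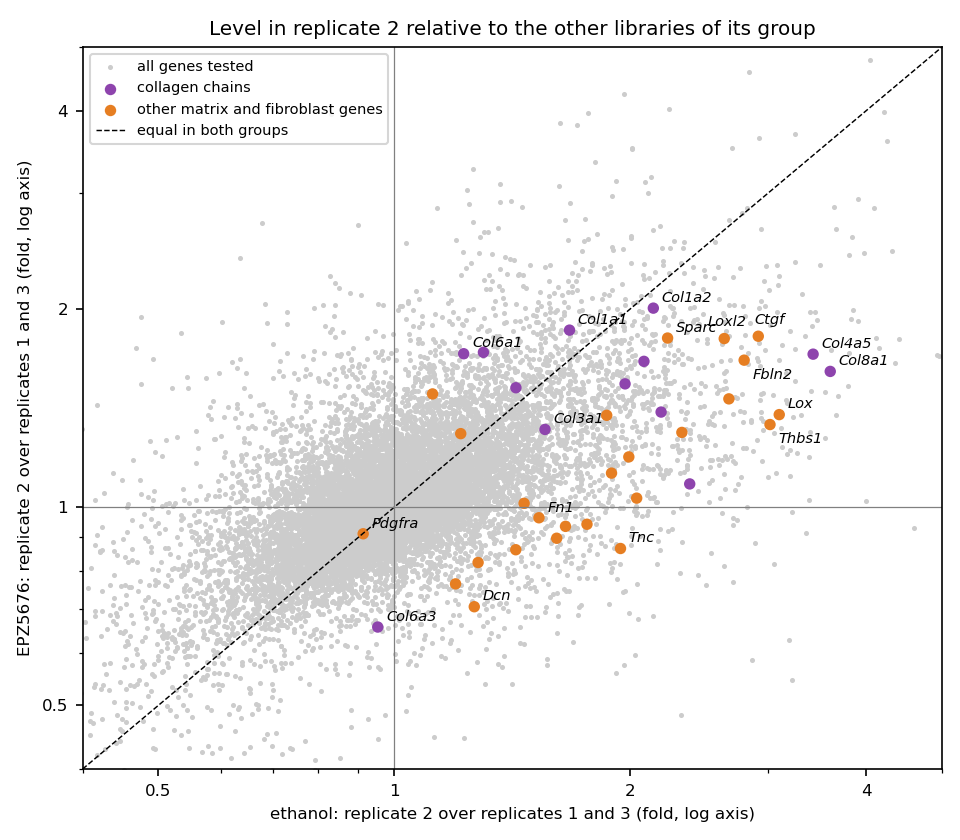
Fold of replicate 2 over the geometric mean of replicates 1 and 3, in the ethanol group (horizontal, log axis) and in the EPZ5676 group (vertical, log axis), for all tested genes within the axes (grey), the collagen chains (purple) and the other matrix and fibroblast genes (orange). In 32 of 38 members the point lies below the dashed line of equal fold.

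The excess in replicate 2 was not of one size in both groups. Over the members the median fold of replicate 2 over replicates 1 and 3 was 1.88 with ethanol and 1.32 with EPZ5676, where the medians of all genes were 0.996 and 1.01. The fold was larger with ethanol for 32 of 38 members, against 48.2% of all genes, and the exceptions were Col1a1, Col5a1, Col6a1, Col6a2, Postn and Loxl1. With 1 pair of such libraries this difference has no replicate and was not tested. Col8a1 (3.60-fold with ethanol and 1.61-fold with EPZ5676), Col4a5 (3.42 and 1.71), Lox (3.10 and 1.38) and Thbs1 (3.02 and 1.33) had the highest folds with ethanol. Tnc (1.94 and 0.865) and Dcn (1.26 and 0.706) were higher in replicate 2 with ethanol and lower in replicate 2 with EPZ5676. The same held for Fn1, Thbs2, Bgn, Lum, Fbn1, Mmp2 and Timp2.

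As a single reading of the matrix genes, their summed level was 2196, 2941 and 2527 CPM in EPZ5676 replicates 1, 2 and 3 and 2121, 4193 and 2423 CPM in the ethanol replicates. The group means were 2555 ± 373 CPM for EPZ5676 and 2912 ± 1119 CPM for ethanol (mean ± SD, n = 3), 12.3% lower with EPZ5676. The groups overlapped, and the two-sided exact permutation test gave p = 0.9, where the smallest value 3 against 3 can give is 0.1. The differences within pairs 1, 2 and 3 were 74.9, -1251 and 103 CPM. The 13 collagens summed to 666, 1044 and 639 CPM in the EPZ5676 libraries and 721, 1336 and 803 CPM in the ethanol libraries, and were lower with EPZ5676 in each pair. Their means, 783 ± 227 and 953 ± 334 CPM (n = 3), gave an exact permutation p of 0.5. The other 25 genes summed to 1530, 1897 and 1888 CPM in the EPZ5676 libraries and 1400.1, 2857 and 1621 CPM in the ethanol libraries, higher with EPZ5676 in pairs 1 and 3 and lower in pair 2.

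**Figure D4:**
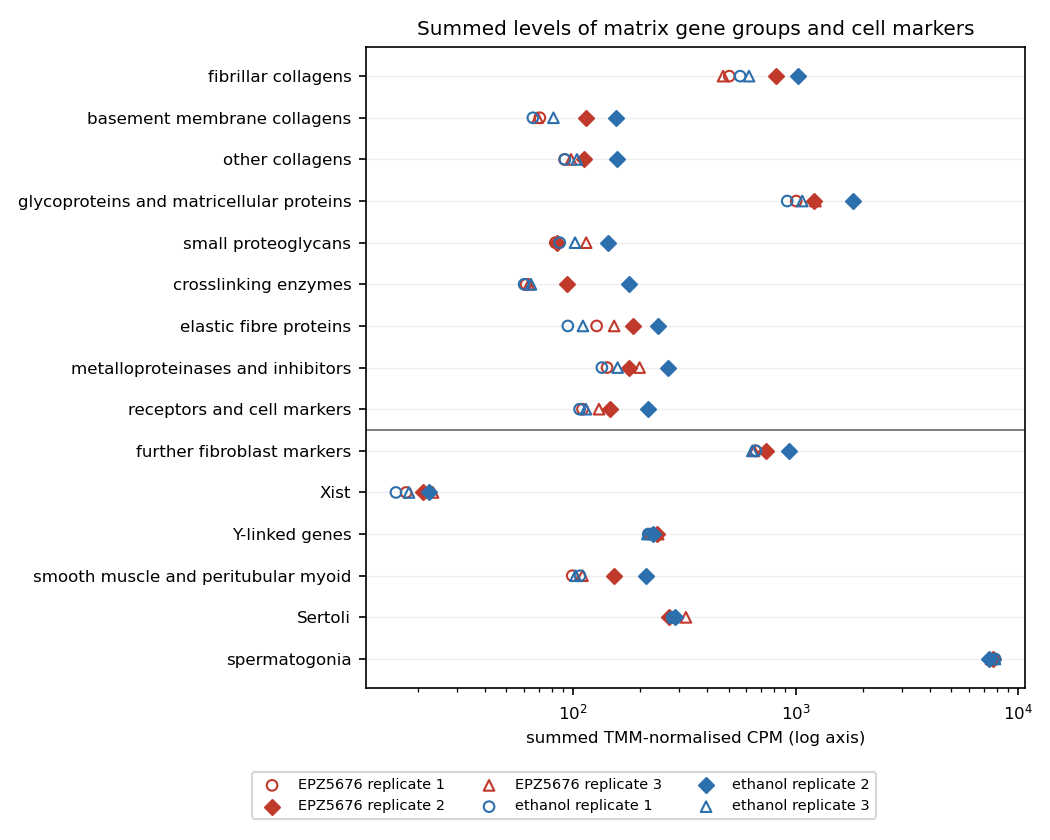
Summed TMM-normalised CPM (log axis) of the 9 role groups of the 38 genes (above the line) and of cell type markers (below it), for each of the 6 libraries. Replicate 2 (filled diamonds) lies to the right of the other libraries for the fibrillar and basement membrane collagens, the crosslinking enzymes and the smooth muscle markers, while the spermatogonial sum runs from 7429 to 7888 CPM.

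Markers of other cell types gave a reading beside these sums. A list of 22 further fibroblast markers, none of them among the 38, summed to 662, 739 and 650.0 CPM in the EPZ5676 libraries and 662, 934 and 639 CPM in the ethanol libraries, so that replicate 2 was the highest library in both groups here too. The largest parts of this sum were Lgals1, Anxa2 and Tagln2, at means of 132, 104 and 100 CPM over the 6 libraries. The 11 markers of smooth muscle and peritubular myoid cells summed to 99.1, 153 and 110.1 CPM in the EPZ5676 libraries and 107, 212 and 102 CPM in the ethanol libraries. Replicate 2 was the highest library of both groups for 6 of the 10 tested genes of this list, and the median fold of replicate 2 over replicates 1 and 3 was 1.57 with ethanol and 1.20 with EPZ5676. The fold was 2.93 with ethanol and 1.64 with EPZ5676 for Acta2, smooth muscle actin, 2.83 and 1.65 for Tagln, an actin-binding protein, and 1.11 and 1.16 for Mylk, myosin light chain kinase. Xist, which is expressed from the inactive X chromosome of female cells, was at 17.7, 21.2 and 23.4 CPM in the EPZ5676 libraries and 15.97, 22.5 and 18.3 CPM in the ethanol libraries, and 4 Y-linked genes summed to 222 to 241 CPM with EPZ5676 and 216 to 228 CPM with ethanol. Sertoli markers (13 in the file) summed to 269.9 to 321 CPM with EPZ5676 and 279 to 288 CPM with ethanol, macrophage markers (12) to 14.4 to 20.7 CPM with EPZ5676 and 16.5 to 20.8 CPM with ethanol, and endothelial markers (12) to 287 to 322 CPM with EPZ5676 and 301 to 328 CPM with ethanol. The Sertoli sum was mostly Ctsl (249 ± 27.99 CPM with EPZ5676) and the endothelial sum mostly Erg (240.1 ± 17.3 CPM). Wt1, a transcription factor of Sertoli cells, went the other way from the collagens. Replicate 2 was its lowest library in both groups, at 0.553-fold of replicates 1 and 3 with ethanol and 0.663-fold with EPZ5676. Its replicate number term was called (edgeR adjusted p = 0.0107). The Sertoli list did not share this: of its 9 tested genes, replicate 2 was lowest in both groups for 1, Wt1, and highest in both for 2. Leydig markers (8) summed to 5.59 to 6.92 CPM with EPZ5676 and 7.93 to 10.4 CPM with ethanol, so that the groups did not overlap, with Lhcgr at 0 in every library. Most of this sum was Star, a cholesterol transport protein of steroid-making cells, at 5.63, 5.03 and 6.24 CPM in the EPZ5676 libraries and 7.58, 9.63 and 6.93 CPM in the ethanol libraries (edgeR adjusted p = 0.616). Germ cell genes also moved with the replicate number: its term was called for 9 of 27 spermatogonial genes, against 11.9% of all genes. Replicate 2 was highest in both groups for 7 of the 27 and lowest in both for 7. These shares were near those of all 14855 tested genes, where the counts were 3883 and 3952. The part of any of these cell types in the levels of the matrix genes was not tested.

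Levels were compared between genes per kilobase of exon. The length was the union of all exons annotated for a gene in GENCODE M21, which can exceed the length of any single transcript. With ethanol the highest members were Fn1 at 58.5 ± 15.3 CPM per kilobase (mean ± SD, n = 3), Sparc at 46.3 ± 23.4, Col1a1 at 40.7 ± 12.9 and Timp1 at 39.5 ± 17.7. Neighbours in this order lay within each other's SD. The next were Thbs1 at 30.9 ± 21.5, Vim at 21.96 ± 11.7 and S100a4 at 20.5 ± 8.91 CPM per kilobase. On this scale Col1a1 stood above its partner Col1a2 (13.1 ± 6.24 CPM per kilobase), at union lengths of 6.563 and 12.426 kilobases. The ratio of their counts ran from 1.45 to 2.34 over the libraries. The gap per kilobase was wider than the gap in counts because of the unlike lengths. At the low end were Pdgfrb at 1.13 ± 0.447, Col4a5 at 1.09 ± 0.854 and Loxl1 at 0.897 ± 0.115 CPM per kilobase.

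Genes that work with these members were read from 9 lists. In the edgeR test without the block none of their genes was called. With the block, 4 of their 210 distinct tested genes (1.90%) fell with EPZ5676 and none rose, against 0.33% and 0.323% of all genes. Nid1, nidogen, which links laminin to type IV collagen in basement membranes, was 1 of 18 tested genes of the basement membrane list. Its log2 fold change was -0.39 ± 0.07 (adjusted p = 0.0485 in the blocked edgeR test), from 127 ± 17.3 CPM with ethanol to 95.9 ± 4.31 CPM with EPZ5676, and the groups did not overlap. Itga3, a laminin-binding integrin chain and 1 of 25 tested integrins and matrix receptors, fell by 0.52 on the log2 scale (adjusted p = 0.0257), from 68.05 ± 17.95 to 47.2 ± 10.8 CPM, with overlapping groups. Mmp9, a gelatinase and 1 of 26 matrix proteases, fell by 0.66 (adjusted p = 0.0485), from 16.2 ± 1.83 to 10.3 ± 0.654 CPM, and its groups did not overlap. DESeq2 called Mmp9 without the block too (adjusted p = 0.0222). Dlc1, 1 of 24 genes of the YAP and TEAD list, fell by 0.34 (adjusted p = 0.0485), from 162 ± 28.8 to 127 ± 14.9 CPM, with overlapping groups. Without pair 1 none of the 4 passed, with blocked edgeR adjusted p values of 0.404 for Nid1, Itga3 and Mmp9 and 0.468 for Dlc1, while their log2 fold changes were -0.43, -0.54, -0.66 and -0.36. All 4 passed in the blocked edgeR fits without pair 2, without pair 3 and with library totals, and in DESeq2 with the block.

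The remaining lists held no called gene in either edgeR fit. The 30 other collagen chains had a median log2 fold change of 0.10, where the 13 collagens among the members had -0.24. Col22a1 (36.6 ± 1.41 CPM with EPZ5676 and 29.4 ± 2.13 with ethanol) and Col4a6 (0.900 ± 0.132 and 0.432 ± 0.128 CPM) had higher values with EPZ5676, and Col18a1 (38.6 ± 5.65 and 50.01 ± 4.35 CPM) lower ones. Collagen synthesis and secretion (25 tested genes), which covers prolyl and lysyl hydroxylases and procollagen chaperones and proteases, had a median of -0.03. Fkbp10, a procollagen chaperone, was at 26.2 ± 3.65 CPM in EPZ5676 and 31.7 ± 5.18 CPM in ethanol cultures. TGF-beta signalling (20 genes) had a median of -0.15, and the nearest of its genes to the threshold was Smad3, a signal transducer of TGF-beta, at 97.5 ± 10.96 and 137 ± 26.2 CPM (blocked edgeR adjusted p = 0.0514). Further elastic fibre and proteoglycan genes (23) had a median of 0.01 and mesenchymal transcription factors (20) one of 0.04. Of the latter, Tcf4 was at 34.97 ± 2.22 CPM in EPZ5676 and 26.6 ± 2.45 CPM in ethanol cultures. The medians of the lists with a called gene were 0.0067 for basement membrane, -0.03 for integrins and matrix receptors, -0.08 for matrix proteases and -0.07 for YAP and TEAD.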

How the data were processed

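RNA was extracted with TRIzol and made into libraries with a TruSeq Stranded mRNA kit, per the labels' protocols. The authors deposited raw read counts per gene for 6 libraries, and the submitters' processing notes name the mm9 build, with Bowtie, STAR, featureCounts and edgeR. Not given in the sources used here are their versions, the annotation, the use of strand and the handling of reads that map to several places. The members and all gene lists were chosen with earlier results of these data known.

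Genes were kept with edgeR's filterByExpr (14855 of 24495 rows), scaled with TMM and tested with the quasi-likelihood test (edgeR 4.0.16, R 4.3.3), 3 EPZ5676 against 3 ethanol libraries, at a Benjamini-Hochberg adjusted p under 0.05. Log2 CPM used a prior count of 2. Deviations from the group means correlated at 0.41, 0.61 and 0.34 between libraries with the same number and at -0.49 to 0.28 between the others. The replicate number, taken from the titles, was therefore also fitted as a block. EPZ5676 replicate 1 with ethanol replicate 3 gave 0.28, and EPZ5676 replicate 3 with ethanol replicate 1 gave 0.15. Numbers 1 and 3 were thus less clearly matched between the groups than number 2. No pair of libraries agreed within counting noise. Alternatives were DESeq2 1.42.0, limma-voom 3.58.1, other scalings and filters and leaving out libraries or pairs. DESeq2 and library totals with the block, and the sum without Fn1, were added after the data were seen. The scripts were tested on simulated counts of 14855 genes with known changes. Group changes of 2-fold were recovered at 99% without the block and 100% with it, and changes of 1.5-fold at 83% and 91%. The simulated spread was taken from the fit with the block. In the real counts its biological coefficient of variation was 0.078, against 0.148 without the block. The recovery without the block therefore does not carry over to the real counts. False calls numbered 2 without the block, 25 with it and 27 for the replicate number term. In these simulated counts the latter 2 fits thus made more false calls than the fit without the block. A replicate 2 effect was simulated for only some genes, so the share of false calls among the real ones is not known. Single sums were compared with an exact permutation test. The text names every member, up to 3 genes of each pathway list by the blocked p, and up to 3 of the most abundant genes of each marker list. Promoter windows were matched by symbol or synonym.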

Additional observations from a re-analysis of the deposited data

How the results depend on the processing

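With the replicate block the number of genes called went from 0 to 97 (48 higher and 49 lower with EPZ5676), with DESeq2 to 52, with DESeq2 and the block to 293 and with library totals and the block to 193. The number of members called was 0 in each of these but DESeq2 with the block (4) and library totals with the block (1). RLE size factors, library totals, a filter of at least 1 CPM, no filter and limma-voom, all without the block, called 0 genes. Leaving out any 1 library, without the block, called 0 genes and 0 members. Leaving out a pair with the block, at 1 residual degree of freedom, called 0 to 795 genes and 0 to 10 members. Over the fits without libraries or pairs the members' median log2 fold change ran from -0.38 to 0.12. The log2 ratio of their summed CPM ran from -0.37 to 0.16, against -0.19 in all 6 libraries. The upper ends of the last 2 were reached without ethanol replicate 2, which turned the sign of 26 of 38 members. The number of members called for the replicate number term was 21 under each other scaling and 26 of 38 with no filter, against 12.5% of all genes. Signs of members near 0 turned in the following fits, and the cause was not tested. The log2 fold change was 0.082 for Col4a5, 0.051 for Fbln2, 0.014 for Timp1 and 0.017 for Timp3 with the block, 0.074 for Col4a5, 0.039 for Fbln2, 0.00327 for Timp1 and 0.00648 for Timp3 with library totals and the block, and 0.14 for Col4a5, 0.066 for Fbln2, 0.036 for Timp1 and 0.046 for Timp3 with DESeq2 and the block. With limma-voom it was 0.32 for Col4a5, 0.029 for Loxl1, 0.13 for Fbln2, 0.055 for Timp1 and 0.12 for Timp3. It was -0.012 for Fn1 with library totals, -0.00209 for Fn1 with the 1 CPM filter, and 0.00538 for Col4a5 and 0.00149 for Loxl1 with no filter. Leaving out libraries or pairs, the log2 fold change ran from -0.57 to 0.075 for Col1a1, -0.76 to 0.12 for Col1a2, -0.61 to 0.11 for Col5a2, -0.57 to 0.16 for Col4a1, -0.49 to 0.15 for Col4a2, -0.34 to 0.85 for Col4a5, -0.45 to 0.021 for Col6a2, -0.35 to 0.023 for Col6a3, -0.85 to 0.38 for Col8a1 and -0.48 to 0.32 for Col12a1. Among the glycoproteins it ran from -0.13 to 0.25 for Fn1, -0.63 to 0.41 for Thbs1, -0.70 to 0.13 for Sparc, -0.58 to 0.12 for Tnc, -0.78 to 0.28 for Ctgf and -0.48 to 0.13 for Cyr61. For other members it ran from -0.35 to 0.15 for Bgn, -0.59 to 0.0081 for Lum, -0.81 to 0.25 for Lox, -0.16 to 0.092 for Loxl1, -0.77 to 0.21 for Loxl2, -0.36 to 0.61 for Fbln2, -0.41 to 0.054 for Mmp2, -0.34 to 0.036 for Mmp14, -0.24 to 0.38 for Timp1, -0.32 to 0.30 for Timp2, -0.39 to 0.53 for Timp3, -0.49 to 0.062 for Pdgfrb, -0.42 to 0.33 for Vim and -0.41 to 0.26 for S100a4. Of the further genes it ran from -0.00172 to 0.57 for Lama5 and -0.74 to 0.18 for Mfap5. On all 6 libraries with TMM the edgeR fit called 0 members with and without the block. On the 4 libraries other than replicate 2 it called 0 without the block and 10 with it. Loxl1, with 48 reads in EPZ5676 replicate 1, was the member with least depth.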

Other observations

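Genes of a list of keratinocyte and epithelial markers summed to 13.2 to 32.8 CPM with EPZ5676 and 11.5 to 26.04 CPM with ethanol. Krt18, a simple epithelial keratin, was at 7.88, 13.9 and 4.43 CPM in EPZ5676 replicates 1, 2 and 3 and at 3.81, 12.3 and 3.13 CPM in the ethanol replicates, and its partner Krt8 at 4.04, 5.86 and 1.02 CPM with EPZ5676 and at 1.32, 6.55 and 0.997 CPM with ethanol. Krt19 was at 4.40, 6.84 and 2.49 CPM with EPZ5676 and at 4.37, 3.36 and 2.37 CPM with ethanol. Replicate 2 was the highest library of both groups for 3 of the 6 tested genes of this list, Krt18 and Krt8 among them, and the lowest of both for 1. For Krt19 it was the highest with EPZ5676, and ethanol replicate 1 was above ethanol replicate 2.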
